A study of Drosophila melanogaster with 2 samples.

Results

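The genes described here encode the spliceosome, the splicing factors that work with it and relatives that share their names: 46 of the 13945 protein-coding genes of Drosophila melanogaster on the 6 main chromosome arms. Of these, 25 were found by name, as Lsm in any case, Sf3a, Sf3b or Prp followed by a digit in the Ensembl annotation, and 21 were listed by name. The name pattern also takes in LSm1, Lsm10 and Lsm11, which serve mRNA decay or histone mRNA, and all 46 are called splicing genes for short. Of the listed names 20 matched a gene directly. SmG is a synonym of both SNRPG and smg, the translational repressor Smaug, and was taken as SNRPG, the Sm protein. The hyphen in LSm-4 leaves that gene outside the name pattern, and it had no promoter summit in the thresholded or the pooled list.

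Sites of the transcription factor Max were mapped by ChIP-seq, sequencing of the DNA that an antibody against GFP pulled down, in whole embryos of both sexes, 0 to 24 h old. The flies were a transgenic line stably producing Max with GFP at its C terminus. There was 1 group of 2 biological replicates, numbered 2 and 3, each with 1 library from chromatin sonicated to 200 to 800 bp. The control was not analysed here, and neither the promoter of the tagged Max nor the state of the native Max gene is given in the sources used here. Whole embryos pool many tissues and ages, so strong occupancy in few cells and weak occupancy in many cannot be told apart.

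Max has a helix-loop-helix and leucine zipper domain and binds DNA as the partner of Myc and of Mnt, and Myc is known in flies as a driver of growth and ribosome production. The spliceosome removes introns from pre-mRNA. Its small nuclear ribonucleoproteins (snRNPs) each hold a small nuclear RNA and specific proteins, and all but the U6 snRNP carry a ring of Sm proteins. SR proteins, which carry repeats of arginine and serine, bind exons and help to recruit the machinery to splice sites.

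A gene is called bound here where a peak summit of the thresholded list lay within 500 bp of any of its annotated starts. That list holds the 4712 pooled peaks that passed the authors' threshold on the irreproducible discovery rate (IDR), a measure of how well ranked peaks repeat between replicates. The score of a peak is the authors' value in the field that the peak format keeps for enrichment. Its scale is not stated, so it ranks peaks only within 1 list. In the IDR list scores ran between 87.0 and 1561.5. Sequencing depth is unknown, since the lists hold no read counts. No 2 of the 25 bound splicing genes had the same peak, though most shared it with a gene outside the 46, and none had more than 1 IDR summit.

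The sequences below are the non-exonic stretches within 75 bp of the summit for a high-scoring bound gene of each role, shown because they are the DNA over which the peaks centred, and for SmB, SmD1 and Prp3, which were added because they hold a motif other than TATAAA. The gene shown is the highest-scoring one of its role except for LSm7 and Prp31, since the higher-scoring LSm1 and Prp19 are not printed. They come from the Release 6 reference genome (dm6) on the strand of the named gene, 5′ to 3′. Capitals mark any match, on either strand, to CACGTG (the canonical E-box that Myc and Max bind), TATCGATA (the DNA replication-related element, DRE), GGTCACAC (Ohler 1), GGTATTTT (Ohler 6), CATCNCTA (Ohler 7) or TATAAA. The stretch of SmD2 is chr3R:6345987-6346110, minus strand. That of SmB is chr2L:10426693-10426843, minus strand, and that of SmD1 is chr3L:12734809-12734944, minus strand. The stretch of snRNP-U1-C is chr3R:18983722-18983872, minus strand. Sf3b1 is shown at chr2L:568156-568306, plus strand, and U2af50 at chrX:16359062-16359142, minus strand. LSm7 is shown at chr2L:16743329-16743404, minus strand. Prp31 is shown at chr3L:15158711-15158861, plus strand, and Prp3 at chr3L:19910216-19910299, plus strand. SF2 is shown at chr3R:16342135-16342285, minus strand.
SmD2: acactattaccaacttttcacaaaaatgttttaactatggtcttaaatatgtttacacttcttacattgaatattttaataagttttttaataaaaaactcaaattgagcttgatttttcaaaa
SmB: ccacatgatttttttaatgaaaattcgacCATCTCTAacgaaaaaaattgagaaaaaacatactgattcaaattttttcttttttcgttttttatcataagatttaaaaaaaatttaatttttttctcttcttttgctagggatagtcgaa
SmD1: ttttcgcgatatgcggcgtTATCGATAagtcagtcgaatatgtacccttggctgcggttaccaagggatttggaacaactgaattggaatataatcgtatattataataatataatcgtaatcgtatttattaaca
snRNP-U1-C: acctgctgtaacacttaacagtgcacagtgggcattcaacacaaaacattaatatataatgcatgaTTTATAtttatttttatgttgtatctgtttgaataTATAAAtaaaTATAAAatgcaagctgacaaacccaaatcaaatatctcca
Sf3b1: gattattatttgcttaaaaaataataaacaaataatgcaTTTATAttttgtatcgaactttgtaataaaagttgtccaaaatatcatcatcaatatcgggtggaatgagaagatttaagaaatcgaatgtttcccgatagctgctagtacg
U2af50: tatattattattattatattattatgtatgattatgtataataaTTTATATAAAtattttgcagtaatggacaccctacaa
LSm7: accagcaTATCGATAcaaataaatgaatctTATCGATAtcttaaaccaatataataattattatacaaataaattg
Prp31: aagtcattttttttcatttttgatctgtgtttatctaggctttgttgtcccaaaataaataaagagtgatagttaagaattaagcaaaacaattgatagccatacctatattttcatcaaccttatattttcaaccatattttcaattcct
Prp3: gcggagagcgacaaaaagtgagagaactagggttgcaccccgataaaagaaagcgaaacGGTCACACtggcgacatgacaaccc
SF2: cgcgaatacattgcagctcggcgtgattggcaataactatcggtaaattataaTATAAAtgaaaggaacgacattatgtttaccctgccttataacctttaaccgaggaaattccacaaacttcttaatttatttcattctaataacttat

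CACGTG was in none of the 25 peaks within 50 bp of the summit, a window of 101 bp, against 4.45% of the 2855 IDR peaks at promoters. It was also in none of them within 100 bp, against 7.67%. The DRE, an element common at fly promoters of widely used genes, was in 2 of the 25 peaks within 50 bp, against 5.57% of promoter peaks. In the LSm7 peak the DRE occurred at 7 and at 30 bp from the summit, and in the SmD1 peak at 34 bp. Ohler 1 lay 8 bp from the summit of Prp3, the only one of the 25 peaks to hold it within 50 bp, against 3.47% of promoter peaks. Ohler 7 lay 39 bp from the summit of SmB, again in 1 of the 25 peaks, against 3.47%. Ohler 6 was in none, against 2.00%. Within 100 bp the DRE was in 4 of the 25 peaks, against 9.53%, and Ohler 1 in 4, against 6.58%. Ohler 7 was then in 2, against 7.18%, and Ohler 6 still in none, against 4.31%. The Ohler 1 match of SmD2, 68 bp from its summit, falls outside its printed stretch.

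TATAAA was in 8 of the 25 peaks within 50 bp, against 22.2% of promoter peaks, and these letters are frequent in DNA rich in A and T. Its 8 peaks were those of Prp19, Sf3b1, SF2, SmG, snRNP-U1-70K, snRNP-U1-C, snf and U2af50, and in U2af50 matches on both strands overlap. At least 1 of the 6 motifs was present in 12 of the 25 peaks, against 36.4% of promoter peaks. Over the 151 bp from which the printed stretches were cut, the count was 13 of 25, against 47.3%. Within 100 bp TATAAA was in 9 of the 25 peaks, against 35.8%, and at least 1 motif in 16, against 56.3%. Within 50 bp the median GC content was 34.7% both for the 25 peaks and for all promoter peaks, with U2af50 lowest at 17.8% and SmD3 highest at 60.4%. A match describes letters in a window and is not a mapped site, and the lack of one says only that the letters are not there.

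Max occupied the promoters of 25 of the 46 splicing genes, 54.3% (95% Wilson interval 40.2 to 67.8), against 25.9% of all 13945 protein-coding genes. The interval covers counting error only, because genes are not independent replicates. Bound genes were found among the Sm ring, the U1 and U2 proteins, SF3a and SF3b, U2AF, the LSm proteins, the Prp proteins and the SR proteins, and the helicase gene Hel25E was not bound. The peaks were mostly of middling height. The bound splicing genes had a median score of 142.0, against 155.4 over all bound genes, where a shared peak counts for each of its genes. With each promoter peak of the IDR list counted once, the median was 142.7. Of the 25, 12 lay above the 155.4 of all bound genes. The upper quartile of all bound genes, 233.2, was passed by 4, namely Sf3b1, SF2, U2af50 and Sf3b6.

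**Figure D1:**
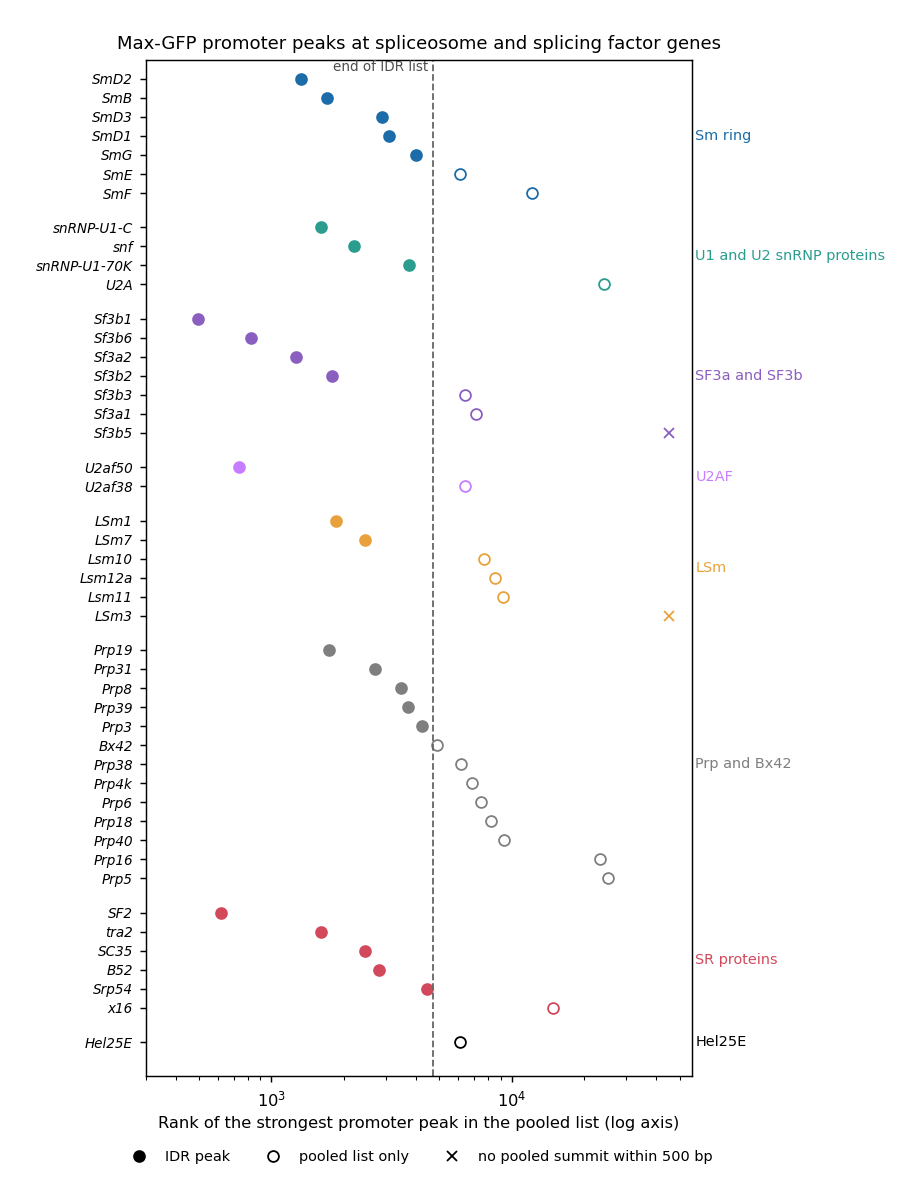
Rank in the pooled list (log axis, 1 = highest score) of the promoter summit of each splicing gene, by role, with filled circles for bound genes, open circles for summits in the pooled list only and crosses for no summit. The dashed line marks rank 4712, the end of the IDR list, and the 25 bound genes lie on its high-scoring side with Sf3b1 at rank 496 in front.

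The snRNP core, taken as the Sm ring together with the U1 and U2 proteins, was bound at 8 of 11 genes, 72.7% (Wilson 43.4 to 90.3), and the SR proteins were bound at 5 of 6, 83.3% (43.6 to 97.0). These intervals overlap over most of their length, and the difference between the groups was not tested. The remaining 29 genes were bound at 12, 41.4% (25.5 to 59.3), and that interval overlaps both of the others. The highest score was 189.1 in the snRNP core and 272.6 among the SR proteins, with medians of 131.4 and 132.8.

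**Figure D2:**
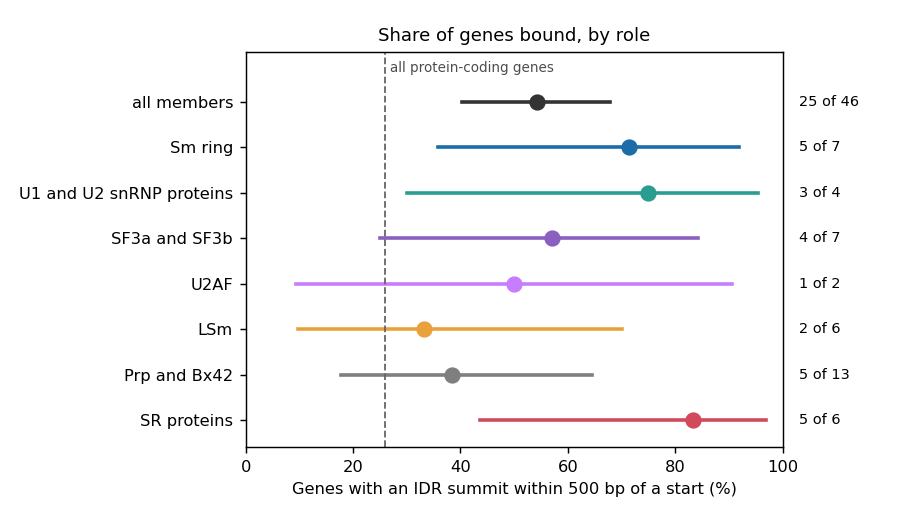
Percent of genes with an IDR promoter summit (x axis) for all 46 splicing genes and for each role but that of Hel25E, a single gene, with 95% Wilson intervals as bars. The dashed line marks 25.9%, the share over all protein-coding genes, and each role's interval is wide, from 43.6 to 97.0% for the SR proteins.

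The Sm ring is the ring of proteins that closes around the small nuclear RNAs, and 5 of its 7 genes were bound. SmD2 had the highest score of the ring, 189.1 at rank 1324 of the IDR list, and ranked 924 in replicate 2 and 2723 in replicate 3. SmB followed with 165.6 at rank 1709, and ranked 1079 in replicate 2 and 4603 in replicate 3. SmD3 scored 120.8 at rank 2885, with the reverse order between replicates, rank 5545 in replicate 2 and 1672 in replicate 3. The summits of SmD2 and SmB lay 151 and 141 bp upstream of their starts, and that of SmD3 61 bp upstream.

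SmD1 scored 115.3 at rank 3079, and its rank was 2178 in replicate 2 and 8402 in replicate 3. SmG scored 97.8 at rank 3992, and its rank was 6174 in replicate 2 and 2749 in replicate 3. SmD1 and SmG thus each stood inside the top 4712 of only 1 replicate, as did SmD3. SmE and SmF, the other members of the ring, were not bound. They had pooled promoter summits at rank 6103 for SmE, with a score of 72.5, and at rank 12178 for SmF, with a score of 43.1.

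The U1 snRNP recognises the 5′ splice site and the U2 snRNP the branch site. snRNP-U1-C, which steadies the pairing of U1 with the 5′ splice site, scored 170.7 at rank 1605, and ranked 1553 in replicate 2 and 2071 in replicate 3. snf, the fly protein that serves both U1 and U2 snRNPs, scored 142.0 at rank 2199, and ranked 1716 in replicate 2 and 3664 in replicate 3. snRNP-U1-70K, which binds the U1 RNA, scored 102.1 at rank 3750, and ranked 4783 in replicate 2 and 2788 in replicate 3. U2A, the U2 protein that pairs with snf in the U2 snRNP, was not bound. Its promoter summit was at pooled rank 24187 with a score of 26.0, at rank 13578 in replicate 2, and absent from the replicate 3 list.

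SF3a and SF3b are the parts of the U2 snRNP that hold it on the branch site, and 4 of their 7 genes were bound, with the highest median score of the roles that had more than 1 bound gene, 216.8. Sf3b1, the large subunit that contacts the branch site, had the highest score of all 46 genes, 295.3 at rank 496, and ranked 380 in replicate 2 and 880 in replicate 3. Sf3b6, the small subunit at the branch site, scored 239.2 at rank 823, and ranked 735 in replicate 2 and 962 in replicate 3. Both stood in the first 1000 peaks of each replicate.

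Sf3a2 scored 194.3 at rank 1264, with rank 719 in replicate 2 and 3395 in replicate 3, the widest gap between replicates among the bound genes at 4.72 times. Sf3b2 scored 161.2 at rank 1780, with rank 1950 in replicate 2 and 2283 in replicate 3. Of the genes of the 2 complexes that were not bound, Sf3b3 had a pooled summit at rank 6395 and Sf3a1 at rank 7128. Sf3b5 had no pooled promoter summit, and the nearest pooled summit lay 1110 bp from its start.

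U2AF is the dimer that marks the 3′ splice site. Its large subunit gene U2af50, whose protein reads the polypyrimidine tract, was the third highest of the bound splicing genes, with 253.7 at rank 731. It ranked 471 in replicate 2 and 1328 in replicate 3. Its summit lay 98 bp upstream of the nearest of its 4 annotated starts and over 500 bp from the canonical one, so the call is lost if only the canonical start is used. U2af38, whose protein reads the AG of the splice site, was not bound. The promoter summit taken from each list stood at pooled rank 6366, at rank 7637 in replicate 2 and at rank 3191 in replicate 3. These summits lay at -430, -444 and -207 bp from the start, in that order, where negative values lie upstream. Another pooled summit lay 194 bp from the start, so the replicate 3 rank may belong to a different peak. Whether these peaks overlap was not tested.

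The LSm proteins form rings like that of the Sm proteins, and 2 of these 6 genes were bound. LSm1, part of the cytoplasmic ring that serves mRNA decay, scored 157.0 at rank 1860, and ranked 1575 in replicate 2 and 2435 in replicate 3. LSm7, common to the cytoplasmic ring and the ring on U6 RNA, scored 132.8 at rank 2460, and ranked 1525 in replicate 2 and 3574 in replicate 3. Their summits lay 281 and 304 bp upstream, farther out than those of most other bound genes. Lsm10 and Lsm11, subunits of the U7 snRNP that trims histone mRNA, had pooled summits at ranks 7686 and 9191, and Lsm12a had one at rank 8499. LSm3, also common to both rings, had no pooled promoter summit, the nearest lying 608 bp away.

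The Prp genes were named after yeast mutants in pre-RNA processing and hold proteins of different steps. With Bx42, the fly SKIP protein, they number 13, and 5 were bound. Prp19, a ubiquitin ligase needed to activate the spliceosome, scored 163.8 at rank 1731, and ranked 1746 in replicate 2 and 1827 in replicate 3. Prp31, a U4/U6 snRNP protein, scored 125.7 at rank 2689, and ranked 2563 in replicate 2 and 3871 in replicate 3. Prp8, the scaffold at the heart of the spliceosome, scored 107.6 at rank 3474, and ranked 2624 in replicate 2 and 4035 in replicate 3. These 3 genes stood inside the top 4712 of both replicates.

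Prp39, a U1 protein in yeast, scored 103.1 at rank 3707, and its ranks of 3320 in replicate 2 and 3316 in replicate 3 were nearly equal. Prp3, another U4/U6 snRNP protein, scored 94.1 at rank 4220, and ranked 5381 in replicate 2 and 3293 in replicate 3. Bx42 fell just outside the IDR list, at pooled rank 4882 with a score of 85.0, and ranked 4806 in replicate 2 and 4924 in replicate 3. The other Prp genes that were not bound had pooled ranks of 6150 for Prp38, 6814 for Prp4k, 7421 for Prp6, 8198 for Prp18, 9313 for Prp40, 23228 for Prp16 and 25265 for Prp5. Prp16 and Prp5 are helicases that remodel the spliceosome.

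SF2, the fly counterpart of human SRSF1, had the highest score of the SR proteins, 272.6 at rank 618, and ranked 953 in replicate 2 and 455 in replicate 3. tra2, the partner of Transformer in the splicing of doublesex, scored 170.1 at rank 1616, and ranked 1462 in replicate 2 and 2340 in replicate 3. SC35, the counterpart of SRSF2, scored 132.8 at rank 2458, and ranked 2107 in replicate 2 and 2380 in replicate 3. The SR genes include both the second highest score of the 25 and, in Srp54, the lowest.

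B52, the fly SRp55, scored 122.5 at rank 2818, and ranked 3262 in replicate 2 and 2287 in replicate 3. Srp54, an arginine-serine protein and not the signal recognition particle subunit, scored 90.4 at rank 4462, and ranked 3772 in replicate 2 and 3697 in replicate 3. x16 was the SR gene that was not bound, with a promoter summit at pooled rank 14832 and score 37.3. Hel25E, the fly UAP56, a helicase of spliceosome assembly and mRNA export, had a pooled summit at rank 6082 with a score of 72.7. An IDR summit lay 923 bp from its start, outside the 500 bp used here.

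Summits lay mostly just upstream of the starts. The median signed distance from the start to the summit was -109 bp for the splicing genes, against -116 bp for all bound genes, where negative values lie upstream. The summit was upstream for 20 of the 25 genes and inside the gene for 5, against 84.2% upstream over all bound genes. It lay within 150 bp of the start for 14 of the 25 genes, a count that was not taken over all bound genes. All 8 bound genes of the snRNP core had it upstream, while among the SR genes SF2 alone did. B52, SC35, Srp54 and tra2 had it 48, 238, 7 and 12 bp inside. SC35 was measured from the nearer of its 2 starts, and its summit was upstream of the canonical one. The summit changed side between replicates 2 and 3 for Srp54 (-139 and 77 bp), tra2 (22 and -26 bp) and B52 (48 and -15 bp). The difference in side between the groups was not tested. Set against the exons and introns of any gene, 18 of the 25 summits lay between genes and 5 in an exon outside coding sequence. The other 2, those of SC35 and SmD3, lay in an intron. The intron at SmD3 and the exon at Sf3b2 belong to other genes, since these summits lay 61 and 108 bp upstream. Such places were not counted over all promoter peaks. On X, 3 of 7 splicing genes were bound, against 24.2% of all genes there. The counts were 7 of 12 on 2L, against 25.0%, 5 of 10 on 2R, against 25.1%, 5 of 8 on 3L, against 26.6%, and 5 of 9 on 3R, against 28.0%.

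Most of these peaks stood between a pair of genes on opposite strands. For 20 of the 25 bound genes, 80.0%, the same summit was also within 500 bp of a start of 1 other protein-coding gene, against 61.1% of all bound genes, and each of these neighbours was on the opposite strand. tra2, B52, Prp8, Prp39 and snRNP-U1-70K were alone at their summits. The neighbours have varied functions. snf shared its summit with Cdk7 and LSm1 with Xpd, which encode parts of the general transcription factor TFIIH. Prp3 shared with the chromatin remodeller gene Mi-2, Prp31 with the mismatch repair gene Msh6, and SC35 with the translation termination factor gene eRF3. Sf3b6 shared with the nuclear import gene Tnpo, Sf3b1 with the ribosome assembly gene Nle, SmD3 with Oda, the antizyme of ornithine decarboxylase, and SmB with KdelR, a receptor of the secretory pathway. The other pairs were SmD2 with CG18048, SmD1 with Ptp69D, SmG with mthl1, snRNP-U1-C with gukh, Sf3a2 with CG42588, Sf3b2 with CG17219, U2af50 with PIG-Q, LSm7 with BuGZ, Prp19 with rswl, SF2 with pad and Srp54 with Etl1.

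A peak list cannot assign such a summit to 1 gene of the pair. The splicing gene's own start was the nearest for 12 of the 25 summits, and another gene's start was nearer for 13. LSm7 lay 304 bp from its summit and BuGZ 1 bp, while Sf3b1 lay 109 bp away and Nle 110 bp. If each summit is given only to its nearest gene, 12 of the 46 splicing genes were bound, 26.1%, against 19.0% of all genes, and SmD3 was then the only bound gene of the Sm ring. The snRNP core then had 3 bound genes and the SR proteins 3.

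**Figure D3:**
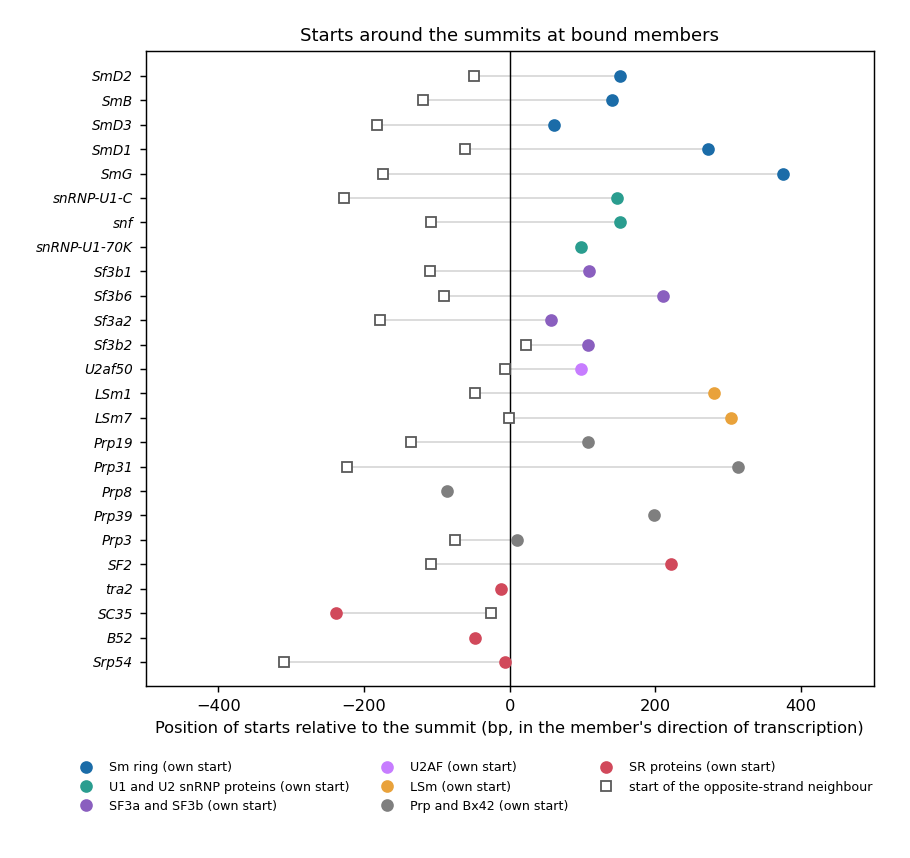
Position in bp of the splicing gene's start and of the neighbouring gene's start relative to the IDR summit at 0 for the 25 bound genes, drawn with the splicing gene reading to the right. Neighbour starts are present for 20 genes, and for 13 of the 25 the neighbour is the nearer of the pair.

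Close neighbours were common whether a splicing gene was bound or not. Another protein-coding gene had a start within 500 bp of their own for 30 of the 46 splicing genes, 65.2%, against 30.9% of all genes. Among those with such a neighbour 18 of 30 were bound, 60.0%, against 51.1% of all genes with one. Among those without, 7 of 16 were bound, 43.8%, against 14.7% of all genes without one. These 7 include Prp31 and SmG, whose summits were still shared, with Msh6 and mthl1, and lay nearer to the starts of those genes. The part of this spacing in the share of 54.3% was not tested beyond these counts. In the snRNP core 6 of the 7 genes with a neighbour and 2 of the 4 without, SmG and snRNP-U1-70K, were bound. For the SR genes the counts were 3 of 4 with and 2 of 2 without.

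The number of annotated starts was also set beside the calls, because a gene with more starts has more windows in which a summit can fall. Of the splicing genes with 1 start 19 of 37 were bound, 51.4%, against 21.1% of all genes with 1 start. Of those with 2 starts 5 of 8 were bound, against 34.9%. U2af50 was the only one with more.

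The replicates ranked the same peaks in different order. All 25 peaks overlapped a peak of both replicate lists by at least 1 bp, and 24 did so over at least 50% of their length, the exception being U2af50 in replicate 3. The IDR list keeps peaks for repeating between replicates, so this overlap follows largely from how that list was made. Of the 25, 21 stood in the top 4712 of replicate 2, 24 in that of replicate 3 and 20 in both. The higher rank was in replicate 2 for 17 genes and in replicate 3 for 8, and the median ratio of the larger to the smaller rank number was 1.63. These counts and ratios were not taken over all IDR promoter peaks, so they cannot be called particular to the splicing genes. For the 8 core genes the median ratio was 2.60, with SmB at 4.27, and 2 of the 8 differed by 2 times or less. For the 5 SR genes it was 1.43, with SF2 at 2.09, and 4 of the 5 differed by 2 times or less. The difference between these groups was not tested. With the list of replicate 2 alone the core had 5 bound genes, and with that of replicate 3 alone 7. Counted in the top 4712 of each replicate alone, 22 of the 46 splicing genes had a promoter summit in replicate 2, 47.8%, against 26.0% of all genes. In replicate 3 the count was 25, 54.3%, against 25.0%.

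**Figure D4:**
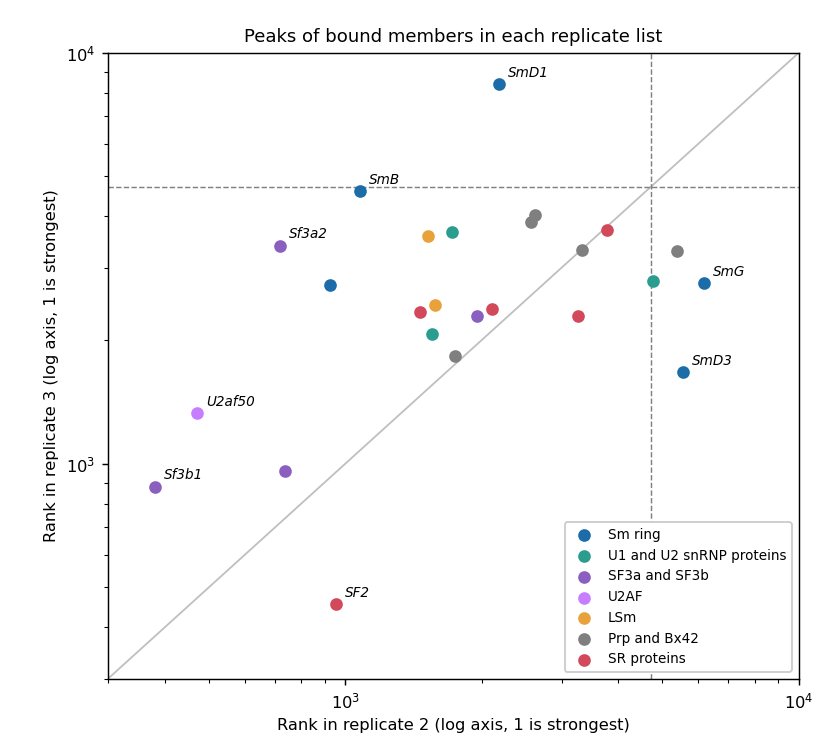
Rank in replicate 2 (x axis) against rank in replicate 3 (y axis) of the 25 bound splicing genes on log axes, where 1 is the highest score, coloured by role, with dashed lines at rank 4712. The solid line marks equal ranks, and 17 genes lie on the side where replicate 2 ranked them higher.

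The 21 splicing genes that were not bound mostly had a weaker peak. A pooled promoter summit was present for 19 of them, 90.5%, against 42.2% of all genes that were not bound. A promoter summit stood in the pooled list and in both replicate lists for 16, 76.2%, against 28.2%. The pooled ranks ran between 4882 for Bx42 and 25265 for Prp5, with a median of 7686, against 10868 over all such genes. The first 10000 ranks held 14 of the 19, 73.7%, against 45.2%. Of these pooled summits, those of Lsm12a, Prp16, Prp4k, Sf3a1, Sf3b3, SmF and U2A were shared with no other protein-coding gene. The others were also within 500 bp of another gene's start, and a peak list cannot assign such a summit to 1 gene. The share of shared summits over all genes that were not bound was not counted. Prp16, U2A and x16 had a summit in the pooled list and in replicate 2 and none in replicate 3, and LSm3 and Sf3b5 had 1 in replicate 2 alone. The pooled and replicate lists are each capped at 30000 peaks and hold background by design, so these summits are weaker evidence than those of the IDR list.

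Within the bodies of 3 of the genes without a bound promoter there were IDR summits elsewhere. Prp16 held one with a score of 183.7, 5743 bp from its start, and one with a score of 90.2, 3836 bp from its start. x16 held summits scoring 155.3 and 117.1 at 1423 and 1154 bp from its start, within the promoter window of nop5. Prp38 held one scoring 111.2 at 1138 bp, within the promoter window of CG30344.

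A wider list of 70 splicing genes outside the 46 was counted in the same way, and 29 were bound, 41.4%, against 25.9% of all genes. With each summit given only to its nearest gene, 21 of the 70 were bound, 30.0%, against 26.1% of the 46 and 19.0% of all genes. Among tissue-specific regulators 7 of 14 were bound, including elav, the neuronal RNA-binding protein, with a score of 493.3, msi with 467.2 and the sex-determination switch Sxl with 150.5. Among further SR-related genes 5 of 7 were bound, with Son at 435.8. Helicases and Prp19 complex genes were bound at 5 of 9, among them Brr2, the helicase that unwinds U4/U6, with 174.5. The hnRNP genes were bound at 5 of 11, with glo at 256.0 and sqd at 237.6. snRNP assembly genes were bound at 3 of 10, including Smn, which loads the Sm ring, with 136.5, and exon junction complex genes at 3 of 7, with Acn at 216.1. Cap-binding and export genes were bound at 1 of 12, Cbp20 with 204.6. The names Art5, snRNP-U5-40K and U5-100K on this list matched no gene in the annotation.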

How the data were processed

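ChIP-seq peak lists on dm6 were used. Per the text deposited beside each sample, the authors called peaks on IP against control alignments for each replicate and for the pooled replicates, and thresholded the pooled list by IDR. No aligner or caller is named in the sources used here. The deposited peak score ranks peaks within a list. The deposited −log10 q-value was not used for calls, and the deposited summit offset placed each summit. Depth is unknown, and the dm3 lists were not used.

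Summits were set against Ensembl release 115 starts of protein-coding genes on the 6 main arms, within 500 bp. Shares carry 95% Wilson intervals, which cover counting error only. With 1 group and 2 replicates no test between conditions was made. Every splicing gene was named, with values for those bound and pooled ranks for those not bound. Members, roles and lists were chosen with earlier results of these data known. Sequences on arm 2R were not printed. Motif searches were tested on planted sequences. Alternatives changed the window, starts, list depth, gene assignment and replicate. Python 3.11.15, numpy 2.4.6, scipy 1.17.1, pandas 2.3.3 and matplotlib 3.10.9 were used.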

Additional observations from a re-analysis of the deposited data

How the results depend on the processing

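The count of bound splicing genes, 25 of 46, was 20 with a 250 bp window, 26 with a 1000 bp window and 24 with canonical starts only, against 21.9%, 28.8% and 23.4% of all genes under the same settings. It was 22 to 25 from 1 replicate alone. It was 13 in the higher-scoring 50% of the IDR list, 28.3% against 15.5% of all genes, and 12 with each summit given to its nearest gene only. In that shortened list, which holds fewer peaks, the snRNP core count was 4, the SR count 2, the count of further splicing genes 19 and the median score of bound splicing genes 170.7, against 211.0 for all genes. With the nearest gene only, the core count was 3, the SR count 3 and the count of further splicing genes 21. From 1 replicate alone the core count was 5 to 7, the SR count 5, and the count of further genes 29 to 32. Without replicate 3, Prp3, SmD3, SmG and snRNP-U1-70K were lost, and without replicate 2, SmD1. The cause was not tested. With the core taken as the Sm ring alone, it was 5 of 7. Prp19, Sf3a2, Sf3b1, snRNP-U1-C and tra2 were bound under all 7 alternatives to the call, and the other 20 were lost under at least 1. Of the genes not bound, 3 were gained under 1 alternative each: Hel25E with 1000 bp, Sf3b3 in replicate 2 alone and U2af38 in replicate 3 alone. LSm-4, single-start genes, the Sm ring alone and the settings for further genes were chosen after seeing the data. Depth is unknown, so what it limits cannot be given.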
